A study of Mus musculus with 8 samples.

Results

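The untreated cells of this study were compared by genotype: 2 libraries from NMuMG cells labelled knockout for Lnc-Nr6a1 against 2 libraries from control NMuMG cells, neither exposed to TGF-β. These are 4 of the 8 libraries of the series, and all genes of the table were considered, of which 13028 of 37310 had enough counts to be tested. NMuMG is an established mouse mammary gland epithelial cell line that undergoes epithelial to mesenchymal transition (EMT) when TGF-β is added. The other 4 libraries were the same genotypes, 2 libraries each, after 2 h with TGF-β at 10 ng/mL, and they serve below as a second pair of groups in which genes named from the untreated cells were read again. They also entered the same fit, so they share in the low-count filter and the estimate of spread behind each untreated p-value, and a fit of the 4 untreated libraries alone called 797 genes against 238. Per the study, the knockout was made with pairs of CRISPR-Cas9 guides on either side of the start of Lnc-Nr6a1, and sorted single cells were grown into clones whose deletion was typed as present on 1 or both alleles. The labels do not say whether both knockout libraries came from 1 clone, or whether the control cells were a clone that went through the same sorting, so the deletion and any difference between clones cannot be told apart here. The labels number the libraries within a group without naming separate cultures, while the study speaks of biological replicates, so the p-values measure the spread between these libraries, which may be partly technical. Total counts were 7871090 and 7800602 in the control libraries and 4297832 and 7181737 in the knockout-labelled libraries, so a count of 3 corresponded to 0.362, 0.366, 0.661 and 0.399 CPM (counts scaled to library size), respectively.

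Lnc-Nr6a1 (Gm13507 in the annotation, also Nr6a1os) is a long non-coding RNA transcribed from an intron of Nr6a1, a gene for an orphan nuclear receptor, on the opposite strand. It is described as the host transcript of the miRNAs miR-181a-2 and miR-181b-2, whose genes lie just past its annotated end. MicroRNAs lower the level or translation of messenger RNAs that carry matches to their seed, and the mature 5p arms of the miR-181 family are also made from other loci, so that a cell can keep these miRNAs after 1 host gene is lost. On NCBIM37, the gene spans chr2:38678777-38707890 on the plus strand, inside Nr6a1 at chr2:38578890-38783208 on the minus strand. Mir181a-2 at chr2:38708255-38708330 and Mir181b-2 at chr2:38709350-38709438 follow its 3′ end. The first exon of the 3-exon transcript lies at chr2:38678861-38679089, plus strand, and is shown because it begins next to the edited start of the gene. The study's results place the downstream cut in the first exon, while its methods place the downstream guides further from the start than this exon reaches. The ends of the deletion were not analysed here, so how much of the exon was removed is not given. Its 229 bases on NCBIM37 are given with the 3 CG pairs in capitals. The mature miRNAs of the locus follow, taken from RefSeq (GRCm38.p6), with bases 2 to 8, the seed, in capitals.

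Lnc-Nr6a1 first exon: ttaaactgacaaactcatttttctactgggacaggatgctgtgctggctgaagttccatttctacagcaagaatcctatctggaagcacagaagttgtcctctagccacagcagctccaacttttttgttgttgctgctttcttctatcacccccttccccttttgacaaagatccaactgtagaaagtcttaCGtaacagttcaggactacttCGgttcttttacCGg
mmu-miR-181a-5p: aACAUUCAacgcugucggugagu
mmu-miR-181b-5p: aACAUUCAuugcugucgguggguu
mmu-miR-181a-2-3p: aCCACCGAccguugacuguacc
mmu-miR-181b-2-3p: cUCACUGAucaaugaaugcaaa

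Both 5p arms share the seed ACAUUCA, and the same mature sequences are listed for Mir181a-1 and Mir181b-1 on chromosome 1. The 3p arms have other seeds.

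Counts of the edited gene overlapped between the untreated genotypes. Gm13507 had 3 and 14 counts in the control libraries and 11 and 7 in the knockout-labelled libraries, with overlapping groups (log2 fold change 0.61 ± 0.83 SE, adjusted p = 0.78, edgeR). With TGF-β, the control libraries held 25 and 35 counts and the knockout-labelled libraries 0 and 0. The later exons remain part of the counted gene, and whether the counting used strand is not stated, so the 11 and 7 counts cannot be assigned to Lnc-Nr6a1 or to the intron of Nr6a1 that contains it. The libraries labelled knockout are therefore called knockout-labelled. Mir181a-2 had 1 count in 1 control library and 0 in the other 3 untreated libraries, and Mir181b-2 had 0 in all 4, which is below what these libraries can compare.

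Around the edited site, no gene passed the adjusted threshold. Of 41 annotated genes within 1 Mb, 11 could be tested and 0 were called by edgeR (1 at an unadjusted p under 0.05, and 0 by DESeq2), the 10 neighbours having adjusted p-values of 0.0996 and higher. Nr6a1 itself had 150 and 165 counts in control and 112 and 193 in knockout-labelled libraries, or 19.1 ± 1.4 CPM and 25.2 ± 0.68 CPM (SD). The libraries did not overlap between the groups, and the log2 fold change was 0.40 (adjusted p = 0.38). The same comparison after TGF-β gave Nr6a1 a log2 fold change of 1.24 with an adjusted p of 0.0056, and the difference between the 2 effects did not pass the test (adjusted p = 0.50). Dennd1a, a regulator of endosomal traffic at the far edge of the window, was the neighbour furthest from 0, at 8.01 ± 0.28 CPM against 3.62 ± 0.14 CPM (SD) and a log2 fold change of -1.14. Psmb7, a proteasome subunit, and Nek6, a mitotic kinase, were level at 0.01 and 0.04 on the log2 scale.

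Across the transcriptome, 238 of 13028 tested genes (1.83%) differed between the untreated genotypes. A gene was called when edgeR's quasi-likelihood test gave a Benjamini-Hochberg adjusted p under 0.05 and the absolute log2 fold change was above 0.5. Of these, 134 (1.03% of the tested genes) were higher and 104 (0.798%) were lower in the knockout-labelled libraries, and 232 were protein-coding. The split between the directions depended on the fit, with 380 higher and 417 lower in the fit of the 4 untreated libraries, 328 and 428 without the filter on low counts and 140 and 151 with a correction for GC content. The lower genes moved further, with a median absolute log2 fold change of 2.44 against 1.38 for the higher genes, and 59 lower genes against 31 higher genes passed a log2 change of 2. All 238 had libraries that did not overlap between groups, as did 51.9% of all tested genes. In the TGF-β-treated libraries, which share no sample with these, 237 of the 238 genes had the same sign, and 121 of the higher and 95 of the lower genes were called again. Of all tested genes, 70.2% had the same sign in both comparisons, and with TGF-β 8.47% were called higher and 6.57% lower. The exception in sign was Mcpt8, at 1.72 without and -0.08 with TGF-β. The difference between the effects with and without TGF-β passed for 0 of the 238 genes in edgeR (42 at an unadjusted p under 0.05) and for 2 in DESeq2, Myo15b and Prl2c3, both of which were further from 0 with TGF-β.

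The count of calls leaned on every library. Leaving out control replicate 1 left 50 called genes, leaving out control replicate 2 left 41, and leaving out knockout-labelled replicate 1 or 2 left 53 or 43. In all 4 of these fits 25 of the 238 genes stayed called, and 162 were called in none of them. The 25 comprised 15 higher genes, among them Klhl13, Prune2, Sprr1b, Sdc3, Tns1, Spats2l, Col15a1, Sned1 and Mmp15, and 10 lower genes, Fam111a, Celf2, Inhbb, Vcan, Peg3, Fam65b, Bnc1, Scd1, Pcsk6 and Sgk3. The other 213 genes lost their call in at least 1 of these fits.

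The largest decreases were losses of all detectable transcript. Of the called genes, 14 had 0 counts in both untreated knockout-labelled libraries, and 8 of them (Fam111a, Dsg2, Mal2, Ephb1, Evc, Zdhhc15, Ptprm and Gm10451) also had 0 counts in both knockout-labelled libraries with TGF-β. Fam111a, which encodes a nuclear protease linked to DNA replication and antiviral restriction, had 122 and 139 counts in control cells (14.7 and 17.0 CPM) and none in the knockout-labelled cells. Set against a floor of 3 counts in the shallower of the 2 libraries, it was at least 23.95-fold lower (adjusted p = 0.0011). Dsg2, a desmosomal cadherin, had 76 and 87 control counts and was at least 14.96-fold lower (adjusted p = 0.0046). Mal2, a membrane protein of transcytosis to the apical surface, had 52 and 67 control counts and was at least 10.92-fold lower (adjusted p = 0.0048). All 3 genes lie on different chromosomes (19, 18 and 15), and each separated the genotypes completely.

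The other 9 of the 12 largest decreases were also at 0 counts in both knockout-labelled libraries. Ephb1, an ephrin receptor, had 55 and 41 control counts and was at least 8.80-fold lower. Ptprm, a receptor phosphatase that binds cells to each other, had 31 and 19 control counts, and the bound was only 4.58-fold because the gene was weakly expressed. Evc, a component of the Hedgehog pathway at the cilium, had 51 and 39 control counts and was at least 8.25-fold lower. Palmd, a paralemmin relative at the cell membrane, was at least 8.63-fold lower, Zdhhc15, a palmitoyl transferase, at least 6.98-fold, Pde3b, a phosphodiesterase of cyclic nucleotides, at least 5.69-fold, and Dlg3, a scaffold protein of cell contacts, at least 4.58-fold. Serpina1b, a serum protease inhibitor, and Gm10451 had bounds of 5.87-fold and 6.61-fold. Serpina1b has near-identical copies that can share its reads, so its value is uncertain. Their adjusted p-values lay between 0.01 and 0.034.

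Other strong decreases left a few counts. Celf2, an RNA-binding regulator of splicing, fell from 151 and 177 counts to 1 and 3, a ratio of 60.0 (95% counting interval 23.2 to 221.5, adjusted p = 0.00042). Inhbb, the βB subunit of activin and inhibin, fell from 94 and 94 counts to 1 and 2, a ratio of 45.9 (interval 15.4 to 224.4). Vcan, the large matrix proteoglycan versican, was better covered, with 84.3 and 112 CPM in control libraries and 1.32 and 3.06 CPM in knockout-labelled libraries (log2 fold change -5.37 ± 0.44 SE, adjusted p = 0.00071). Peg3, an imprinted zinc-finger gene expressed from the paternal allele, fell from 238 and 170 CPM to 6.39 and 10.6 CPM (-4.54 ± 0.34 SE, adjusted p = 0.00042). It was the 1 called gene of 21 tested imprinted genes (4.76%). Bnc1, the epithelial transcription factor basonuclin, fell from 65.6 and 63.7 CPM to 9.26 and 4.52 CPM (-3.30 ± 0.27 SE). The counting intervals cover counting error only. Celf2 differed less between the genotypes with TGF-β, at -2.50 against -5.86 on the log2 scale. The treated libraries held 189 and 143 counts of it in control and 38 and 34 in knockout-labelled cells. The difference of the effects did not pass (adjusted p = 0.32 in edgeR).

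The largest increases included genes that control cells barely expressed. Lrrc26, an auxiliary subunit of BK potassium channels in secretory epithelia, had 0 and 0 counts in control libraries and 14 and 33 in knockout-labelled libraries, at least 10.2-fold higher (adjusted p = 0.014). Prune2, a BCH-domain protein, rose from 0.482 and 1.59 CPM to 57.8 and 50.2 CPM (log2 fold change 5.69 ± 0.41 SE, adjusted p = 0.00042). Klhl13, an adaptor of the CUL3 ubiquitin ligase on the X chromosome, rose from 4.34 and 4.03 CPM to 47.6 and 58.5 CPM and had the smallest p of all genes (3.66 ± 0.22 SE, adjusted p = 0.00026). Prune2 and Klhl13 kept their call whichever library was left out, and Lrrc26 in none of those fits.

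Casp1, the inflammasome protease, had 3 and 3 control counts against 43 and 47, a ratio of 20.5 (95% counting interval 9.06 to 57.3). Stc1, the secreted glycoprotein stanniocalcin 1, had 2 and 1 against 21 and 78, a ratio of 45.1 (14.99 to 222.4). Stc1 differed much less between the genotypes with TGF-β, at 1.27 against 5.29 on the log2 scale, although the difference of the effects did not pass (adjusted p = 0.44). Muc5b, a gel-forming mucin, rose from 1.57 and 3.78 CPM to 25.1 and 45.9 CPM, and Fat2, a giant atypical cadherin, from 0.121 and 0.976 CPM to 5.29 and 6.25 CPM. Tns1, the focal adhesion protein tensin 1, rose from 1.81 and 1.59 CPM to 16.5 and 17.8 CPM (3.33 ± 0.28 SE), and Spats2l, a nucleolar stress protein, from 4.10 and 6.96 CPM to 52.0 and 50.1 CPM (3.20 ± 0.30 SE). Megf10, a phagocytic receptor, rose by 3.14 on the log2 scale. The entry mmu-mir-689-2 also rose, from 149 and 177 counts to 1865 and 711 counts, with knockout-labelled replicate 1 far above knockout-labelled replicate 2. It belongs to a multicopy family, so its reads are uncertain.

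**Figure D1:**
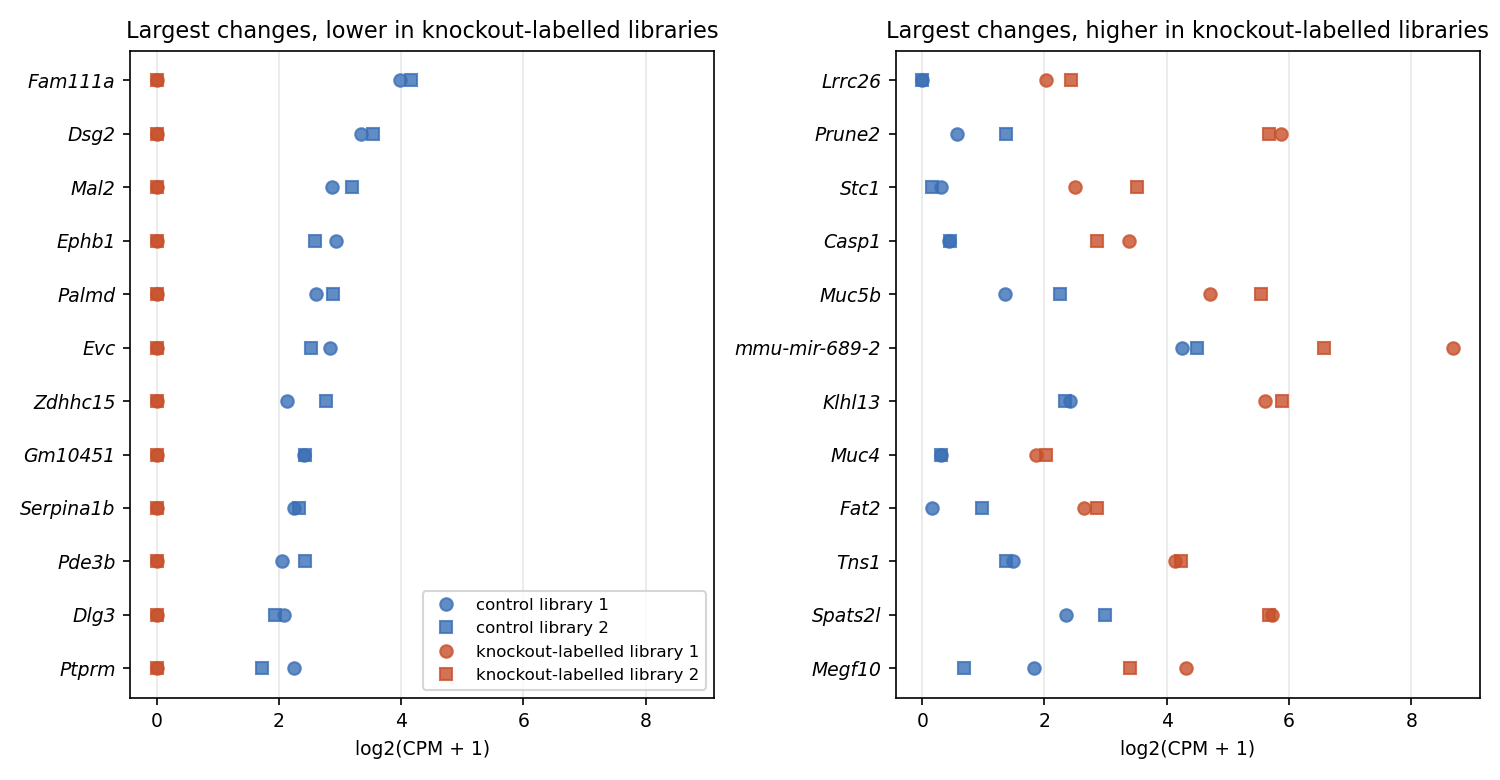
Level of the 12 genes with the largest decrease (left) and the 12 with the largest increase (right) in each untreated library, as log2(CPM + 1) on the horizontal axis, with blue points for the 2 control libraries and orange points for the 2 knockout-labelled libraries. On the left every knockout-labelled point lies at 0, and on the right the groups do not overlap for any gene.

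Among genes of the cell surface, several brush border components rose. The brush border is the array of microvilli on absorptive epithelia, held together by protocadherins and unconventional myosins. Of 17 tested members, 6 were called higher and 1 lower (41.2%, against 1.83% of all tested genes), and the median log2 fold change was 0.59 against 0.02 over all tested genes. Cdhr2, a microvillar protocadherin, rose from 2.53 and 1.34 CPM to 11.7 and 14.1 CPM (2.73 ± 0.35 SE). Myo7b, the motor that partners it, rose from 5.31 and 5.13 CPM to 24.5 and 21.8 CPM (2.14 ± 0.28 SE). Cdh17 (1.25), the liver-intestine cadherin, Mep1a (1.32), a membrane metalloprotease of the brush border, Myo15b (1.36) and Baiap2l1 (0.77), an actin-bundling membrane protein, were also higher. Eps8l2, an actin-capping protein, was lower at -0.73. The list was composed with results from these same libraries known, so its count is no independent evidence of direction. With a correction for GC content the median was 0.40.

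Mucin and surface barrier genes had the highest median of all the lists, 1.98, over only 6 tested genes. Muc4, a membrane mucin, had 2 and 2 control counts against 12 and 23, a ratio of 11.96 (95% counting interval 4.28 to 46.3), and with Muc5b made 2 higher calls. Upk1b, a uroplakin of the bladder surface, was the 1 lower call, from 9.53 and 10.4 CPM to 1.32 and 0.93 CPM. Muc1, the usual membrane mucin of mammary epithelium, was at -0.35 (adjusted p = 0.63). This list, too, was composed with these results known. Sprr1b, a precursor of the cornified envelope of squamous epithelia, rose from 42.6 and 36.4 CPM to 254 and 199 CPM (2.52 ± 0.18 SE, adjusted p = 0.00042), while S100a8, a calcium-binding alarmin, fell from 91 and 46 counts to 1 and 3. Those were the 2 calls among the 13 tested genes of the S100 and cornified envelope list, whose median was -0.02. S100a7a, an S100 gene outside that list, was also called lower, at -3.93 (adjusted p = 0.032 in edgeR).

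Cell junction genes included single strong changes. Desmosomes join neighbouring epithelial cells through cadherins bound to plakophilins, plakoglobin and desmoplakin. Of 10 tested desmosome genes, edgeR called 1, the lower Dsg2, while 4 had an unadjusted p under 0.05 and DESeq2 called 3. The list median was 0.32 and 7 of the 10 were above 0, with Pkp1 at 1.17 (adjusted p = 0.089), Dsp at 0.62 (adjusted p = 0.11) and Jup at 0.35 (adjusted p = 0.24). In the TGF-β-treated comparison the list median was 0.92, with 5 higher calls and 1 lower call, against 8.47% and 6.57% of all tested genes. Among 19 tight junction genes, Jam2, an adhesion molecule of the junction, rose from 31.6 and 30.5 CPM to 91.3 and 84.0 CPM, and Lsr, the angulin of tricellular junctions, fell from 80.8 and 67.1 CPM to 35.5 and 38.7 CPM. Mal2 was the other lower call. The zonula scaffold Tjp1 stood at -0.41 (adjusted p = 0.27) and occludin (Ocln) at 0.15 (adjusted p = 0.72).

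Among 21 tested cadherins and catenins, 4 were higher and 1 lower (23.8%, against 1.83% of all tested genes). Besides Cdh17 and Fat2, the calls were Cdh13, the GPI-anchored T-cadherin (0.91 ± 0.16 SE), Pcdh7, a protocadherin (1.04 ± 0.20 SE), and, lower, Ctnnal1, an α-catenin relative (-2.02 ± 0.29 SE). The classical cadherins that define EMT were flat, with Cdh1 at 230 ± 52 CPM in control and 256 ± 13 CPM in knockout-labelled libraries (SD) and Cdh2 at 0.04 on the log2 scale. None of 12 tested EMT markers was called by edgeR (1 at an unadjusted p under 0.05) or by DESeq2, and the same held for 10 keratins, of which 4 had an unadjusted p under 0.05. Vim, the mesenchymal intermediate filament vimentin, was closest at 0.47 (adjusted p = 0.083), with 2546 ± 28 CPM against 3538 ± 20 CPM (SD). Of the 12 EMT markers 11 were above 0, with a median of 0.17 (0.22 with the GC correction). Of the 10 keratins 8 were above 0, with a median of 0.24 (0.14 with the GC correction). Integrins gave 1 call among 14, Itgb5 at 0.69, which did not pass with the GC correction (0.50, adjusted p = 0.12).

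Several genes of the extracellular matrix rose. Of 30 tested interstitial matrix genes, 7 were called higher and 1 lower (26.7%), with a median of 0.24. Col5a1, a chain of fibrillar collagen V, rose from 16.5 and 12.7 CPM to 35.7 and 53.7 CPM (1.62 ± 0.24 SE). Pcolce, which enhances procollagen processing, rose from 101 and 90.8 CPM to 250 and 233 CPM (1.33 ± 0.16 SE). Sned1 (1.76), a fibronectin-domain matrix protein, Loxl4 (1.21), a collagen-crosslinking oxidase, Fam20c (1.51), the secretory pathway kinase, Tgm2 (0.86), a transglutaminase, and Igfbp7 (0.80), an IGF-binding protein, were also higher. Vcan was the 1 lower call. Tgm2 and Igfbp7 did not pass with the GC correction (0.68 and 0.60, adjusted p = 0.079 and 0.13), and Igfbp7 stood at 0.02 in the TGF-β-treated comparison.

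Of 18 basement membrane genes, 3 rose and 0 fell (16.7%, against 1.83% of all tested genes). The list median was 0.29, and 0.11 with the GC correction. Lamb3, the laminin β3 chain, was abundant at 276 and 305 CPM in control and 559 and 492 CPM in knockout-labelled libraries (0.86 ± 0.15 SE). Col15a1, a multiplexin collagen, rose from 2.77 and 3.05 CPM to 18.1 and 14.1 CPM (2.45 ± 0.24 SE), and Bcam, a laminin receptor, from 4.10 and 4.76 CPM to 13.7 and 17.9 CPM (1.84 ± 0.27 SE). The heparan sulfate list gave Sdc3, a syndecan, at 14.5 and 12.1 CPM against 101 and 122 CPM (3.07 ± 0.26 SE, adjusted p = 0.00076), and Sulf2, an extracellular 6-O-sulfatase, at 1.41 ± 0.27 SE. Among 21 matrix proteases, Mmp15, a membrane-type metalloprotease, rose from 7.84 and 7.69 CPM to 33.5 and 31.1 CPM (2.05 ± 0.22 SE). Hgfac, the activator of hepatocyte growth factor, rose by 1.44, and Mep1a was the third higher call there.

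**Figure D2:**
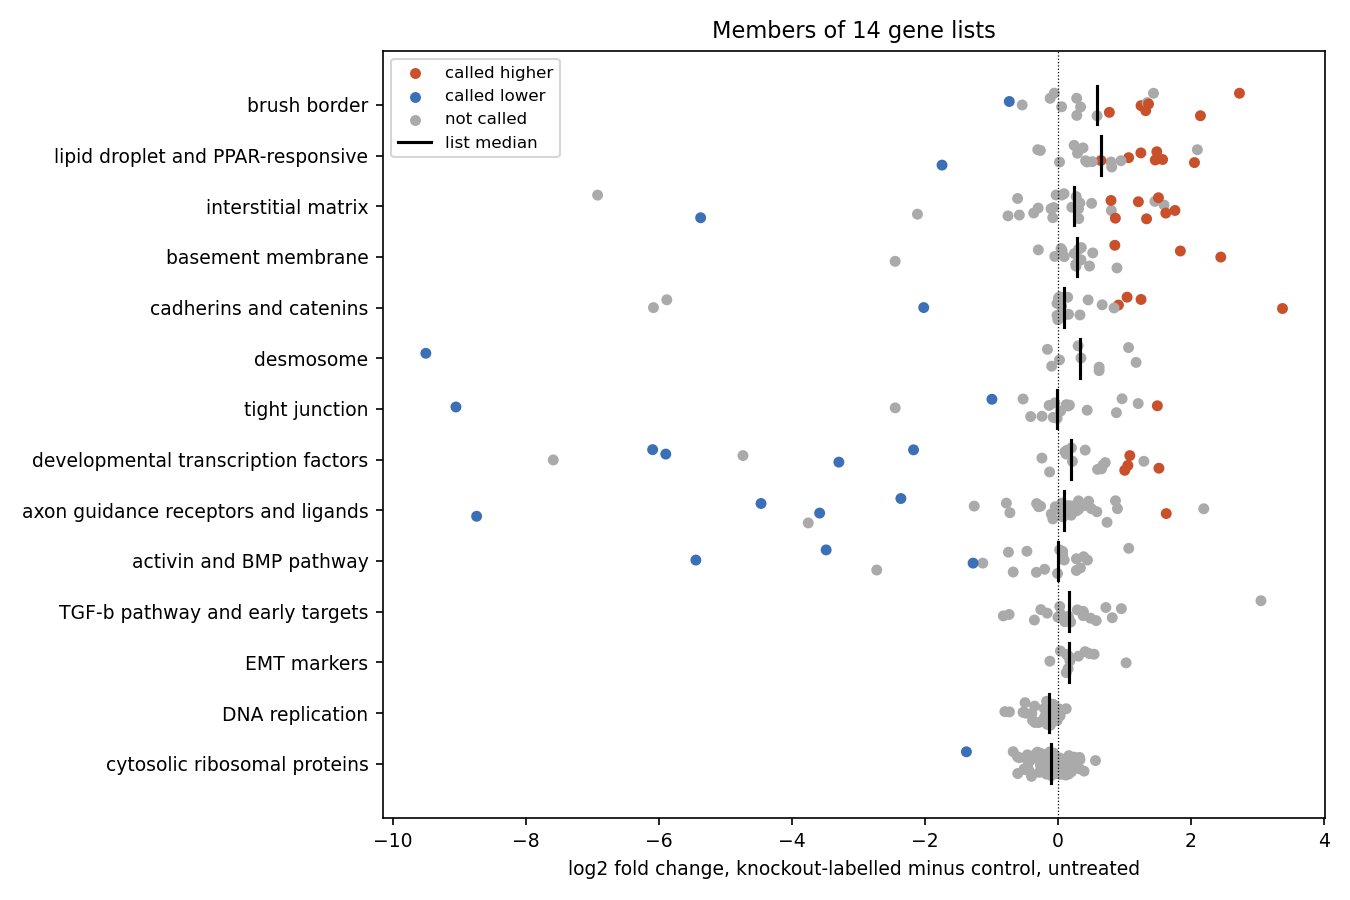
Log2 fold change (knockout-labelled minus control, untreated, horizontal axis) of each tested member of 14 gene lists, with called genes in orange (higher) and blue (lower), other members in grey and the list median as a black bar. Of the 14 lists drawn, brush border and lipid droplet have the medians furthest from 0, at 0.59 and 0.65, and most members of the other lists lie near 0 with single members far below.

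Lipid storage and fatty acid oxidation genes were another group with many calls. Perilipins coat lipid droplets, and PPAR receptors switch on perilipins together with enzymes that activate, hydrolyse and oxidise fatty acids. Of 21 tested members, 7 rose and 1 fell (38.1%), with a median of 0.65. Plin2, the main perilipin of non-adipose cells, rose from 196 and 217 CPM to 445 and 417 CPM (1.06 ± 0.13 SE, adjusted p = 0.0040). Plin4 rose from 22.7 and 10.6 CPM to 77.8 and 60.9 CPM (2.05 ± 0.40 SE). Acot1, an acyl-CoA thioesterase (1.49), Acsbg1, an acyl-CoA synthetase (1.25), Pltp, the phospholipid transfer protein (1.57), Mlycd, malonyl-CoA decarboxylase (1.46), and Cpt1a, the entry step of mitochondrial fatty acid oxidation (0.65), were the other higher calls. Acot1 has near-identical neighbours, so its count is uncertain. Fabp5, a fatty acid-binding protein on chromosome 3, fell from 26.8 ± 2.5 CPM to 8.06 ± 1.1 CPM (SD, n = 2 each). Cpt1a and Mlycd did not pass with the GC correction, at log2 fold changes of 0.58 and 1.23 (adjusted p = 0.057 and 0.079). This list was composed with these results known, so its count is no independent evidence of direction. All 5 adipocyte markers were at or near 0, with a summed level of 0 in both control libraries and 0.221 and 0.665 CPM in the knockout-labelled libraries.

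Synthesis and export of lipids moved the other way in a few genes. Among 21 tested genes of fatty acid synthesis and lipoproteins, 3 fell and 0 rose, with a median of 0.02. Scd1, the stearoyl-CoA desaturase, fell from 197 and 149 CPM to 30.6 and 22.3 CPM (-2.72 ± 0.27 SE). Apob, the core apolipoprotein, fell from 351 and 485 CPM to 89.7 and 177 CPM (-1.64 ± 0.30 SE), and Rbp4, the retinol carrier, from 83.1 and 91.4 CPM to 38.1 and 49.2 CPM (-0.99 ± 0.16 SE). None of 24 cholesterol synthesis and uptake genes was called by edgeR or DESeq2 (0 at an unadjusted p under 0.05), and Cyp51, the most abundant of them, had a log2 fold change of -0.02.

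Among detoxifying enzymes, more rose than fell. Of 28 tested xenobiotic and aldehyde-metabolising genes, 5 rose and 1 fell (21.4%), with a median of 0.28. Ephx1, microsomal epoxide hydrolase, rose from 151 and 177 CPM to 305 and 324 CPM (0.94 ± 0.16 SE). Cyp4b1 (1.87) and Aldh3b1 (1.70), a cytochrome P450 and an aldehyde dehydrogenase, were also higher, as were the aldo-keto reductases Akr1c12 (1.14) and Akr1c13 (1.03), which are close paralogs and may share reads. Cyp2s1, a cytochrome P450 on chromosome 7, was lower at -2.04. Sulfur amino acid and vitamin B6 genes, a list also composed with these results known, gave 3 higher calls of 15. These were Cbs, cystathionine β-synthase, at 0.965 and 1.95 CPM against 8.82 and 7.97 CPM, Suox, sulfite oxidase (1.43), and Pdxk, pyridoxal kinase (1.00). Of 21 NRF2 targets, Sod3, the extracellular superoxide dismutase, rose (1.44) and Slc7a11, the cystine transporter, fell (-1.20), the latter not passing with the GC correction (-0.97, adjusted p = 0.16).

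Central metabolism gave few calls. Pfkm, muscle-type phosphofructokinase, was the 1 edgeR call among 21 glycolysis genes (0.73 ± 0.14 SE, and 0.59 with adjusted p = 0.056 under the GC correction), and the glycolysis median was -0.26. Of the 21 genes, 14 were below 0, 10 had an unadjusted p under 0.05 and DESeq2 called 5. With the GC correction 2 were called, neither of them Pfkm. None of 28 genes of the TCA cycle and none of 78 nuclear-encoded respiratory chain genes was called by edgeR or DESeq2 (1 and 4 at an unadjusted p under 0.05), with medians of 0.04 and 0.06. Solute carriers gave 4 lower and 0 higher calls of 164 (2.44%, against 1.83% of all tested genes), while 98 of the 164 were above 0 and the median was 0.11. With TGF-β the list had 30 higher and 7 lower calls, where 8.47% and 6.57% of all tested genes were called. The untreated calls were Slc7a11, Slc39a4, an intestinal zinc importer (88 and 66 counts against 1 and 3), Slc16a12, a monocarboxylate transporter (49 and 56 against 3 and 0), and Slc9a2, a sodium-proton exchanger (31 and 26 against 2 and 1). Of 78 ribosomal protein genes only Rps3a was called by edgeR, at -1.38, and as a gene with many processed copies its value is uncertain. Of the 78 genes, 55 were below 0, the median was -0.11 and 12 had an unadjusted p under 0.05. DESeq2 called 1, and with the GC correction 4 were called. With TGF-β this list had 18 lower calls and 1 higher call, against 6.57% and 8.47% of all tested genes.

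Developmental transcription factors changed in both directions, 4 higher and 4 lower of 23 tested (34.8%). Zfhx4, a zinc-finger homeodomain factor, fell from 45 and 65 counts to 1 and 0, and Eya1, a transcriptional co-activator of organ formation, from 54 and 40 counts to 0 and 1, ratios of 80.5 (95% counting interval 14.2 to 3208) and 68.8 (12.1 to 2745). Bnc1 and Epas1, the hypoxia-inducible factor HIF-2α (-2.17 ± 0.45 SE), were the other lower calls. Eya2, the paralog of Eya1, rose from 38.4 ± 2.4 CPM to 77.0 ± 4.6 CPM (SD, n = 2 each, log2 fold change 1.00 ± 0.15 SE), so that the 2 family members moved in opposite directions. Dlx3 (1.05), Sp8 (1.08) and Klf12 (1.52), factors of limb, skin and neural development, were also higher. Ehf, an ETS factor of epithelial cells, fell by 2.11 and was the 1 call among 8 epithelial identity factors. Foxf1a, a forkhead factor of mesenchyme, had 26 and 17 control counts against 1 and 0 (ratio 31.5, 95% counting interval 5.35 to 1271) but did not pass the test (adjusted p = 0.11).

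In the activin branch of TGF-β family signalling, an agonist subunit and its antagonist both fell. Activins are dimers of inhibin β subunits, and follistatin binds and neutralises them. Inhbb fell as given above, Fst (follistatin) fell from 35.0 and 34.8 CPM to 3.53 and 2.79 CPM (-3.49 ± 0.35 SE, adjusted p = 0.0017), and Id2, a helix-loop-helix inhibitor induced by BMPs, fell from 150 and 182 CPM to 61.9 and 74.6 CPM (-1.28 ± 0.21 SE, and -1.09 with adjusted p = 0.059 under the GC correction). These were 3 lower and 0 higher calls of 21 tested genes, whose median was -0.01. None of 23 TGF-β ligands, receptors, SMADs and early targets was called by edgeR in these unstimulated cells, with 7 at an unadjusted p under 0.05 and 3 called by DESeq2. Pmepa1, a feedback inhibitor, was closest at 0.72 (adjusted p = 0.079 in edgeR, 0.048 with the GC correction and 0.013 in DESeq2), and Tgfbr2 stood at 0.16 and Smad7 at 0.19. Of 19 Wnt genes, the ligand Wnt4 (1.57 ± 0.24 SE) and the receptor Fzd1 (1.10 ± 0.20 SE) rose. Those calls were 10.5% of the list, against 1.83% of all tested genes. Of 11 Notch genes none was called by edgeR (4 at an unadjusted p under 0.05, 1 called by DESeq2). Amotl1, a scaffold that binds YAP, was the 1 call among 17 YAP and TEAD genes at -0.74, and it stood at -0.15 with TGF-β.

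Axon guidance receptors also steer epithelial cell contacts and migration. Of 39 tested receptors and ligands, 24 were above 0, with a median of 0.09 (0.01 with the GC correction). With TGF-β the list had 11 higher and 5 lower calls, where 8.47% and 6.57% of all tested genes were called. Without TGF-β it had 4 lower calls and 1 higher call (12.8%, against 1.83% of all tested genes). Besides Ephb1, the lower genes were Robo1, the Slit receptor (13.8 and 22.5 CPM against 3.75 and 3.32 CPM), Unc5c, a netrin receptor (27 and 40 counts against 2 and 0), and Odz3, a teneurin (31 and 35 against 0 and 4). Ephb6, an ephrin receptor without kinase activity, was higher at 1.63, and did not pass with the GC correction, at 1.41 (adjusted p = 0.093). Prex1 and Prex2 are paralogous exchange factors for Rac, and Prex1 rose from 5.07 and 3.30 CPM to 24.2 and 23.7 CPM (2.51 ± 0.32 SE) while Prex2 fell from 12.2 and 17.2 CPM to 2.20 and 2.39 CPM (-2.66 ± 0.33 SE). Arhgap31, a GTPase-activating protein (-3.49), Fam65b (-4.47) and Pkn2, a protein kinase (-0.61), were lower, and Rasa3, a GTPase-activating protein (0.78), was higher.

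In PI3K and insulin signalling, 6 of 24 tested genes were called, 4 lower and 2 higher. Sgk3, an endosomal kinase downstream of PI3K, fell from 27.6 and 28.2 CPM to 6.83 and 8.51 CPM (-1.85 ± 0.21 SE). Pik3c2g, a class II PI3-kinase, fell by 1.25 and Mtmr10, a myotubularin relative, by 0.92, and Pde3b was silent as given above. Tbc1d4, a Rab regulator of glucose transporter traffic, rose by 1.18, and Igfbp7 was the other higher call.

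Immune and stress genes gave isolated calls. C3, the central complement component, fell from 55.1 and 40.3 CPM to 13.7 and 16.2 CPM, and Serpina1b fell, while Lbp, the lipopolysaccharide-binding protein, rose from 29.3 and 29.2 CPM to 86.9 and 70.3 CPM, and Clu, a secreted chaperone, rose by 0.94 (0.78 with adjusted p = 0.061 under the GC correction). Those were 4 calls of 32 (12.5%, against 1.83% of all tested genes). Of 17 interferon-responsive genes, Gbp9 (2.37) and Lgals3bp (0.85) were higher. Hypoxia-responsive genes gave Stc1 and Epas1 among 16. None of 27 unfolded protein response genes, 44 lysosomal genes or 21 p53 targets was called by edgeR (1, 15 and 3 at an unadjusted p under 0.05, and 0, 2 and 1 called by DESeq2), with medians of -0.05, 0.27 and -0.10. With the GC correction these medians were -0.11, 0.19 and 0.05.

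Proliferation genes gave 1 call. All 36 DNA replication genes were tested and none was called by edgeR or DESeq2 (4 at an unadjusted p under 0.05), with 30 below 0 and a median of -0.13. Mcm6, a helicase subunit, stood at -0.11 and Rrm1, the large ribonucleotide reductase subunit, at -0.53 (adjusted p = 0.31). Of 34 mitosis genes, 31 were below 0 with a median of -0.22, and the 1 edgeR call (5 at an unadjusted p under 0.05, 2 called by DESeq2) was the higher Anapc2, a subunit of the anaphase-promoting complex (0.69, and 0.55 with adjusted p = 0.096 under the GC correction). In the TGF-β-treated comparison the medians of the same lists were -0.73 and -0.78, with 23 and 15 lower calls, against 6.57% of all tested genes called lower. Whether the lists differed between treatments was not tested. None of 71 histone genes was called by edgeR or DESeq2 (1 at an unadjusted p under 0.05). Of 308 zinc-finger genes of the Zfp series, a list with a low median GC content of 45.5%, 1 was called, Zfp422 at -1.67, with a list median of -0.22 that was -0.09 with the GC correction.

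The identity of the cells was read from marker lists, since in bulk RNA fewer cells of a type and less RNA per cell cannot be told apart. Luminal keratins were abundant in every untreated library, with Krt8 between 2126 and 2624 CPM and Krt18 between 2441 and 2841 CPM. The mesenchymal filament gene Vim was also abundant, at 2566 and 2526 CPM in control and 3524 and 3553 CPM in knockout-labelled libraries. The summed luminal list was 5928 to 6012 CPM in control and 6692 to 7046 CPM in knockout-labelled libraries. Several defining epithelial genes had 0 counts in all 4 untreated libraries, among them Epcam, Cldn3, Cldn7 and Esrp1, and 8 of 15 luminal markers could be tested. Basal or myoepithelial markers summed to 65.0 and 81.8 CPM against 90.4 and 113 CPM, with Krt5 and Acta2 at 0 to 2 counts. Nearly all of that sum was Mylk, at 58.9 and 76.5 CPM against 86.6 and 109 CPM, while Krt14 lay the other way at 5.19 and 4.64 CPM against 2.43 and 2.66 CPM, and neither was called (adjusted p = 0.21 and 0.28 in edgeR). Fibroblast markers summed to under 5 CPM and endothelial markers to under 1 CPM in every untreated library. Immune markers summed to 99.6 to 126 CPM, nearly all of it Cd14, with Ptprc at 0 or 1 count. No marker was called by edgeR or DESeq2, and an unadjusted p under 0.05 was found for 1 of 8 luminal, 2 of 2 basal, 0 of 1 fibroblast and 0 of 2 immune markers tested. The part of other cell types in the results above was not tested beyond these levels.

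Genomic position added a pattern that single genes did not show. Chromosomes 3 and 7 held 12.2% of the tested genes but 35.6% of the lower calls (37 of 104) and 4.48% of the higher calls (6 of 134). On chromosome 3 the median log2 fold change was -0.34 over 641 genes, 80.7% of genes were below 0, and 22 genes (3.43%) were called lower against 3 higher. On chromosome 7 the median was -0.25 over 943 genes, 75.3% were below 0, and 15 genes were called lower against 3 higher. The other chromosomes had medians between -0.04 and 0.18, the highest being chromosome 8 with 4 lower and 11 higher calls.

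The shift was present in both knockout-labelled libraries. Against the mean of the control libraries, the chromosome 3 median was -0.34 and -0.35 in the knockout-labelled libraries and -0.02 and 0.02 in the control libraries. For chromosome 7 the values were -0.26 and -0.24 against 0.04 and -0.04, and for chromosome 8 they were 0.16 and 0.20 against 0.03 and -0.03. With TGF-β, against the treated controls, the knockout-labelled libraries stood at -0.29 and -0.34 for chromosome 3, -0.14 and -0.11 for chromosome 7 and 0.18 and 0.19 for chromosome 8. These chromosome values are descriptions and carry no test.

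**Figure D3:**
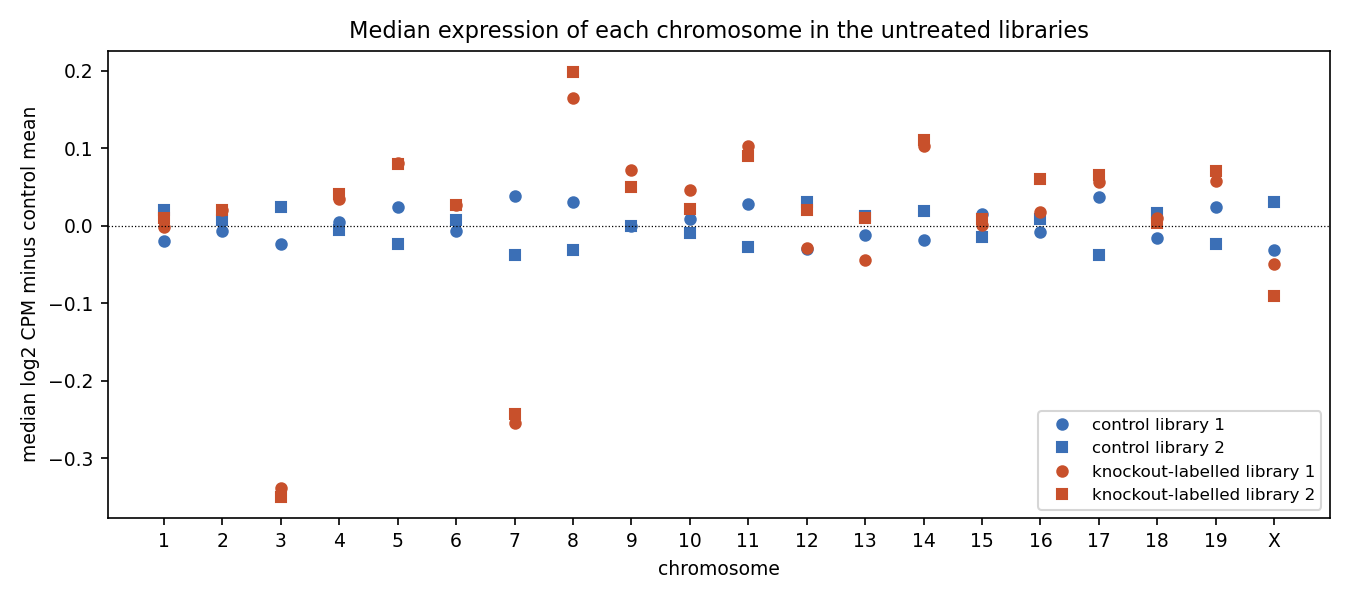
Median over the tested genes of each chromosome of log2 CPM minus the mean of the 2 control libraries, for each untreated library (control in blue, knockout-labelled in orange). Both knockout-labelled points lie below the rest on chromosomes 3 and 7, near -0.34 and -0.25, and above the rest on chromosome 8.

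In untreated cells the lower level ran along the whole of both chromosomes. In windows of 40 consecutive tested genes, all 16 windows of chromosome 3 had a median below 0, from -0.58 to -0.10, and so did all 24 windows of chromosome 7, from -0.44 to -0.10. Of 327 windows over all chromosomes, 36 had a median under -0.2, of which 14 lay on chromosome 3 and 19 on chromosome 7. All 17 windows of chromosome 8 were above 0. With TGF-β, 16 of 16 windows of chromosome 3, 16 of 24 of chromosome 7 and 4 of 17 of chromosome 8 were below 0. Chromosome 2, which carries the edited locus, had 13 of 27 windows below 0. The decrease was of modest size for most genes there: of the 18 lower calls with a log2 change under 1, 14 lay on chromosomes 3 or 7, among them Ssr3 (-0.81) and Serp1 (-0.83), which act at the translocon of the endoplasmic reticulum and were the 2 calls of 32 in that list, as well as Pkn2, Lsr, Eps8l2 and Mtmr10. Serp1 went from 188 and 218 CPM to 118 and 111 CPM. Ssr3 and Pkn2 did not pass with the GC correction (-0.57 and -0.41, adjusted p = 0.054 and 0.18). The strong decreases were spread more widely, with 23 of 86 lower calls past a log2 change of 1 on these chromosomes, including Palmd, Zfhx4, S100a8, Unc5c, Fabp5, Peg3, Bnc1 and Pde3b.

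**Figure D4:**
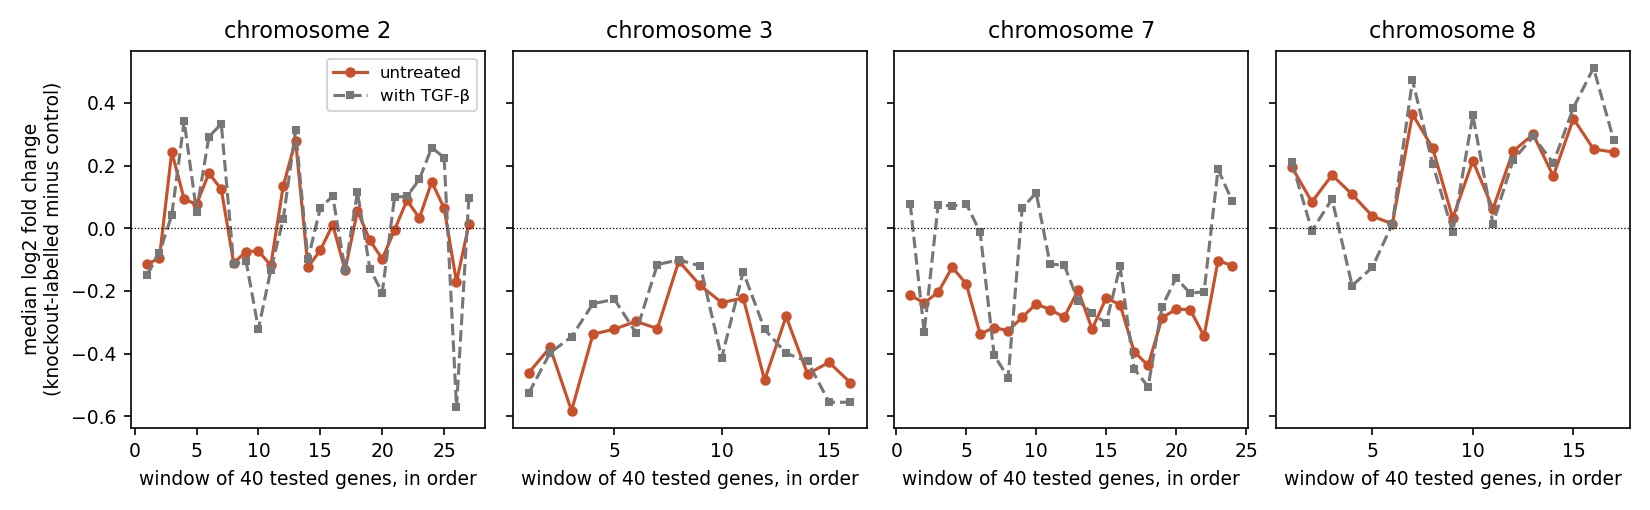
Median log2 fold change (knockout-labelled minus control) in consecutive windows of 40 tested genes, in chromosomal order on the horizontal axis, for chromosomes 2, 3, 7 and 8, untreated (solid orange) and with TGF-β (dashed grey). The untreated windows stay below 0 throughout chromosomes 3 and 7 and above 0 throughout chromosome 8, while those of chromosome 2 fall on both sides. With TGF-β, 16 of 24 windows of chromosome 7 lie below 0.

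GC content of the transcripts moved with the genotype as well. Over the 11428 tested genes with a GC value, split into 4 classes of equal size, the median log2 fold change increased with GC content, from -0.18 in the lowest class through -0.01 and 0.10 to 0.18 in the highest. The control libraries also differed from each other along GC content, control replicate 1 running from -0.08 to 0.10 and control replicate 2 from 0.08 to -0.10 around their mean. The knockout-labelled libraries ran from -0.21 to 0.18 and from -0.15 to 0.18. Of the called genes, 57 higher and 14 lower genes were in the highest class and 13 higher and 30 lower genes in the lowest. Its part in single calls was not tested beyond the correction, under which 291 genes were called, 140 higher and 151 lower.

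Within classes of GC content the chromosomal shift became more even. Relative to chromosomes other than 3 and 7, the median of chromosome 3 differed by -0.34, -0.38, -0.35 and -0.35 from the lowest to the highest class, and that of chromosome 7 by -0.36, -0.36, -0.39 and -0.38. Chromosome 7, which is rich in GC (median 53.6% against 47.8% for chromosome 3), thus stood as low as chromosome 3 once genes of like GC content were compared. Chromosome 8 was higher by 0.09, 0.10, 0.10 and 0.11. In the TGF-β-treated libraries the same differences were -0.26 to -0.45 for chromosome 3, -0.28 to -0.36 for chromosome 7 and 0.06 to 0.11 for chromosome 8. With the GC correction of all genes, the medians of chromosomes 3, 7 and 8 were -0.31, -0.34 and 0.12.

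**Figure D5:**
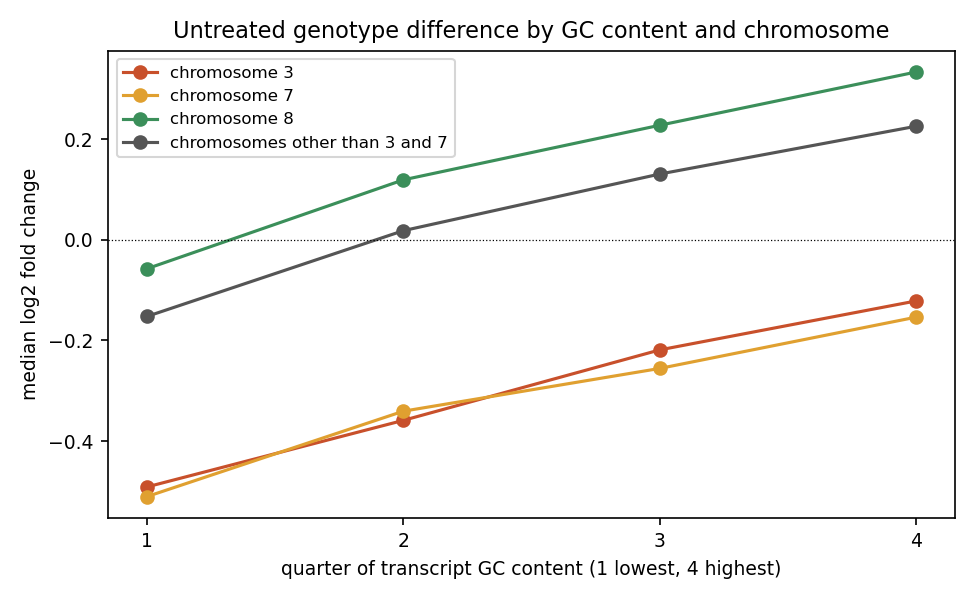
Median untreated log2 fold change in 4 equal classes of transcript GC content (horizontal axis, lowest to highest) for chromosomes 3, 7 and 8 and for all chromosomes other than 3 and 7. All lines rise with GC content, and those of chromosomes 3 and 7 run together about 0.34 to 0.39 below the line of the other chromosomes.

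Some called genes sat side by side. No stretch of 3 consecutive tested genes was called in the same direction, and of 9 adjacent pairs with both genes called, 8 shared their direction. The pair Anapc2 and Lrrc26, 4000 bases apart on chromosome 2, was higher, as was the pair Sulf2 and Prex1 on the same chromosome. S100a7a and S100a8, 10941 bases apart on chromosome 3, were lower. The snoRNA genes SNORA32 and SNORA25, 88 bases apart on chromosome 9, were lower as well. These pairs were picked after their values were seen.

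Messenger RNAs were also grouped by matches to the miR-181 seed. The 7-base match TGAATGT, the reverse complement of the seed, was counted on the transcript strand of the 3′ untranslated region of the longest transcript, which 97.8% of tested protein-coding genes had. It was present at least once in 17.1% of them. Genes with no match had a median log2 fold change of 0.04, those with 1 match -0.02 and those with 2 or more -0.11, with 1.14%, 1.41% and 0.84% called higher and 0.789%, 1.22% and 1.12% called lower. The lower calls numbered 73, 19 and 4, and these shares were not tested. Among genes with regions of 1697 bases or more, the medians were 0.01, -0.03 and -0.10. With the GC correction the median of the genes with at least 1 match was 0.02. Of 24 tested genes reported as miR-181 targets, none was called by edgeR or DESeq2 (4 at an unadjusted p under 0.05), and Hspa5 and Mcl1 stood at -0.07 and -0.33. Of the 24 genes, 16 were below 0, and the list median was -0.14 against 0.02 over all tested genes. With the GC correction these medians were -0.04 and 0.004. The lowest fitted value of the list, chosen after its values were seen, was that of Timp3, an inhibitor of matrix proteases. Timp3 had 7 and 5 counts in the control libraries and 0 in both knockout-labelled libraries (adjusted p = 0.15 in edgeR). A match is a description of sequence and not a measured site.

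Of the genes the study's text names for this comparison, Dsg2, Fam111a, Mal2 and Lphn3 were called in untreated cells by edgeR and DESeq2, Pkp1 by DESeq2 alone, and Foxf1a and Prune by neither. Values for Dsg2, Fam111a, Mal2 and Foxf1a are given above. Lphn3, the adhesion receptor now called Adgrl3, rose from 54.3 and 58.1 CPM to 110 and 134 CPM (1.12 ± 0.15 SE, adjusted p = 0.0082). Pkp1, a plakophilin of the desmosome, was higher in both knockout-labelled libraries at 44.4 ± 1.4 CPM against 19.7 ± 0.34 CPM (SD) without passing the edgeR test (adjusted p = 0.089, against 0.0044 in DESeq2), and Prune, the founding member of the family that includes Prune2, stood at -0.17 (adjusted p = 0.75). Among genes of no list with the smallest p-values, 5730469M10Rik rose from 28.6 and 26.7 CPM to 123 and 101 CPM (2.02 ± 0.17 SE, adjusted p = 0.00071).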

How the data were processed

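The deposited table holds raw read counts per gene for the 8 libraries, made by the authors and not normalized. Its 37310 identifiers are those of GENCODE vM1 on NCBIM37, from which symbols and positions were taken. The study's methods name subjunc (Rsubread) with genomes mm10 and mm9, duplicate removal with samtools and DESeq2, while the submitters' processing notes name HISAT2, limma and mm10. The counting tool and its use of strand are not given in the sources used here. Genes were kept by filterByExpr, scaled by TMM and tested in edgeR 4.0.16 (quasi-likelihood, all 8 libraries, 1 term per group, Benjamini-Hochberg over 13028 genes). Called means adjusted p under 0.05 and absolute log2 fold change above 0.5, and errors are log2 fold change divided by the square root of F. The test was checked on simulated data. DESeq2 1.42.0 and limma 3.58.1 (voom) were alternatives. Bounds used 3 counts. The GC correction, a lowess per library on the GC content of the longest protein-coding transcript, was chosen after seeing the data.

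Named were the target locus, genes the study names, the 12 largest changes per direction, the 10 smallest p-values, called list members or, where none was called, up to 3 abundant members, and runs of called neighbours. Other members are given for context. Members and lists were chosen with earlier results of these data known. Each list is described by its counts and median, with no test. Results on some genes are not reported here.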

Additional observations from a re-analysis of the deposited data

How the results depend on the processing

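The number of called genes depended on the test and on every library. Against 238 calls, DESeq2 gave 428, limma-voom 137, counts thinned to the smallest total 127, no filter on low counts 756, a fit of the 4 untreated libraries 797, and the fit with the replicate number as a block 150 (192 with the block and the GC correction). Leaving out 1 library gave 41 to 53, a lone sample in a group being assumed to vary like the others. RLE factors, a mean of at least 10 counts, no fold change threshold and the GC correction stayed within 1.5 times. Of the 238 genes, 236 were called by DESeq2, all 238 in the fit of the 4 untreated libraries, 213 with the GC correction and 147 with the block. Same-numbered untreated libraries deviated together with a correlation of only 0.098, so the numbers were not taken to pair the samples. Of 124 called genes named in the text, none changed sign in any alternative. Gm13507 did, at -0.10 without control replicate 1 and -0.15 without knockout-labelled replicate 1, and ranged up to 2.10 over the fits that left out 1 library. Prune ranged from -0.39 to 0.031, the latter without knockout-labelled replicate 2. The chromosome 3 median was -0.31 with the GC correction, with or without the block, and that of chromosome 7 -0.34 and, with the block, -0.33. The median of genes with a miR-181 seed match, -0.04, became 0.024 with the GC correction, with or without the block. Other alternatives moved these 3 medians by less than the spread between replicates. The causes of these differences were not tested. Knockout-labelled replicate 1 was the shallowest library, and a gene under 3 counts there, 0.661 CPM, could not be told from 0.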
